A study of Homo sapiens with 5 samples.

Results

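The genes described here encode components of the PI3K, AKT and mTOR pathway, 42 in all, chosen by gene symbol from a table of 18512 symbols. The 42 comprise the catalytic and regulatory subunits of PI3K, phosphatases that remove its lipid products, AKT and its activating kinase, the TSC proteins and RHEB, the subunits of the mTOR complexes, the RAG GTPases that carry the amino acid signal, and kinases downstream. Their transcripts were measured by RNA sequencing in BT474, an established breast cancer cell line of luminal type in which the HER2 gene is amplified. Persister cells (3 libraries) were those left after 9 days in 2 µM lapatinib, a HER2 and EGFR kinase inhibitor, renewed every 3 days in 0.01% DMSO from 75% confluence. Parental cells (2 libraries) were kept alongside in 0.01% DMSO with no lapatinib. The effect of the drug, the arrest of growth and the selection of surviving cells cannot be told apart in this design. The submitters call the libraries biological replicates.

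PI3K phosphorylates a membrane lipid, and the product recruits AKT to be activated by the kinase PDK1. AKT restrains the TSC complex, which otherwise switches off RHEB, the small GTPase that activates mTOR complex 1 (mTORC1) on the lysosome. The RAG GTPases bring mTORC1 to the lysosome when amino acids are plentiful, while mTOR complex 2 (mTORC2) phosphorylates AKT and the SGK kinases. In HER2-amplified breast cancer the HER2 and HER3 receptors feed this pathway, and lapatinib blocks that input.

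The authors deposited 1 FPKM value (fragments per kilobase of transcript, scaled to library depth) per gene and group, with the q-value of their own comparison. The values of single libraries, the spread between replicates and the depth are thus unknown, and no SD can be given. A gene is called higher or lower below where the q-value in the authors' deposited table was under 0.05, and each difference is the log2(FPKM + 1) value in persister cells minus that in parental cells. Fewer cells of a kind and less RNA per cell cannot be told apart in bulk samples. All 10 luminal markers examined were detected, and they summed to 1988 FPKM in persister and 2671 FPKM in parental cells, with ERBB3, ESR1 and GATA3 called higher and the other 7 lower, of which KRT8, KRT19 and FOXA1 turned positive when centred on genes of like length and mean FPKM. ERBB2 itself was listed at 0 in both groups, although its 4 tested amplicon neighbours summed to 1165 FPKM in persister and 1131 FPKM in parental cells. Of these, GRB7 and PGAP3 were called higher and STARD3 and MIEN1 lower. The defining markers PTPRC of immune cells, PECAM1 of endothelial cells and COL1A2 of fibroblasts did not exceed 0.0145 FPKM in either group, but other markers of these lists were detected. The 4 endothelial markers summed to 0.132 FPKM in persister and 1.08 FPKM in parental cells, and CDH5 and VWF fell. The 5 immune markers summed to 6.03 FPKM in persister and 6.91 FPKM in parental cells, mostly from LYZ and CD68, neither of them called. The 7 fibroblast markers summed to 8.73 FPKM in persister and 13.4 FPKM in parental cells, nearly all from COL1A1, which was called lower (q = 3.51e-15). Proliferation markers moved with the groups: MKI67, CCNB1, CDK1 and TOP2A summed to 14.2 FPKM in persister and 177 FPKM in parental cells, and the part of this in the results below was not tested.

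In persister cells, positive components and negative regulators of the pathway each included genes that rose and genes that fell. TSC1, a brake on mTORC1, rose furthest of all 42 genes, and SGK3, RRAGD, DEPTOR, INPP4B, FLCN and RICTOR also rose. RPS6KB2, AKT1 and RHEB, which lie along the main route from PI3K through mTORC1, fell furthest. The authors' test covered 39 of the 42 genes. Of these 39, 15 were called higher and 14 lower, and 10 were not called.

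Among all 13617 genes tested, 69.9% were called, 30.9% higher and 39.0% lower, so the count of pathway genes called was near the background. The median difference was 0.04 for the 39 genes and -0.04 for all tested genes. Differences of at least 0.5 were found in 9 pathway genes that rose and 4 that fell, beside 11.8% of all tested genes higher and 19.4% lower by that much. TSC1, SGK3 and RRAGD rose by at least 1 and RPS6KB2 fell by at least 1, where 2.98% of all tested genes rose and 6.01% fell by that much.

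The 24 positive components were the PI3K catalytic subunits, PDK1, AKT, RHEB, the core of the mTOR complexes, the RAG GTPases and the downstream AGC kinases. Of the 22 tested, 9 were called higher and 9 lower, with a median of 0.07. The 10 negative regulators were the lipid phosphatases INPP4B, INPP5D and INPPL1, the AKT phosphatases PHLPP1 and PHLPP2, TSC1, TSC2, DEPDC5, DEPTOR and AKT1S1. All 10 were tested, and 4 were called higher and 3 lower, with a median of 0.03. The other 8 genes, which act both ways or are substrates, had 7 tested, with 2 higher and 2 lower and a median of -0.03.

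The 24 positive components summed to 329 FPKM in persister and 394 FPKM in parental cells. Without AKT1 and RPS6KB2 the sums were 258 FPKM in persister and 254 FPKM in parental cells, and without SGK3 as well they were 234 FPKM in persister and 243 FPKM in parental cells. The FPKM of the whole table summed to 260213 in persister and 333324 in parental cells. The 10 negative regulators summed to 209 FPKM in persister and 173 FPKM in parental cells. Without DEPTOR and TSC1 they summed to 140.2 FPKM in persister and 143 FPKM in parental cells, and without AKT1S1 as well to 104 FPKM in persister and 90.4 FPKM in parental cells.

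**Figure D1:**
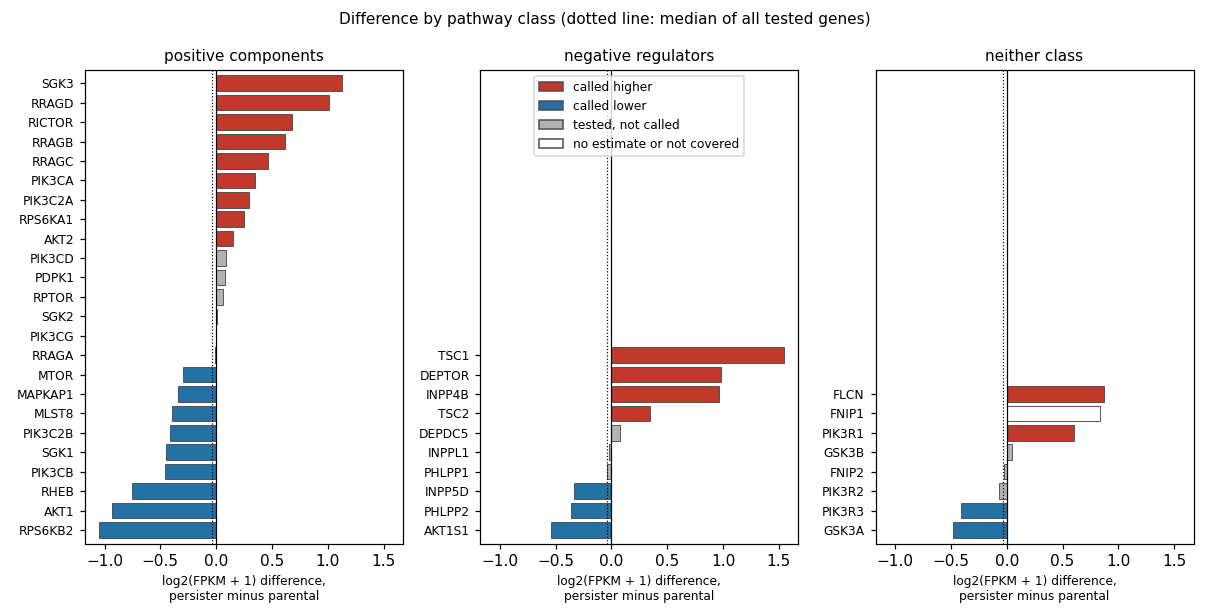
Difference in log2(FPKM + 1), persister minus parental cells, for each pathway gene (bars), in panels for positive components, negative regulators and genes of neither class. Red and blue bars were called higher and lower from the authors' q-value, grey bars were tested and not called, the white bar of FNIP1 has no estimate, and values run from -1.05 for RPS6KB2, a positive component, to 1.54 for TSC1, a negative regulator.

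Among class I PI3K catalytic subunits, which make the lipid that activates AKT, the alpha and beta isoforms moved in opposite directions. PIK3CA, encoding p110 alpha, the isoform that receptor tyrosine kinases mainly use, had 7.76 FPKM in persister and 5.87 FPKM in parental cells (difference 0.35, q = 2.26e-05 in the authors' deposited table). PIK3CB, encoding p110 beta, had 7.88 FPKM in persister and 11.2 FPKM in parental cells (difference -0.46, q = 4.74e-10 in the authors' deposited table). PIK3CA thus made up 49.2% of the summed class I FPKM in persister cells and 34.2% in parental cells, and PIK3CB 49.96% and 65.4%. PIK3CD, the leukocyte-enriched delta isoform, was at 0.136 FPKM in persister and 0.0690 FPKM in parental cells and was not called (q = 0.496). PIK3CG, the gamma isoform, was listed at 0 in both groups. The exons of PIK3CA overlap those of KCNMB3 on the other strand over 37.1% of their bases in GENCODE 29, and the libraries did not keep strand. KCNMB3 itself was listed at 3.00 FPKM in persister and 2.67 FPKM in parental cells.

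The regulatory subunits, which stabilise the catalytic subunit and tether it to receptors while restraining its activity, kept nearly the same total but changed in make-up. PIK3R1, encoding p85 alpha and shorter forms, rose to 16.8 FPKM in persister cells, against 10.7 FPKM in parental cells (difference 0.60, q = 5.98e-11). PIK3R3, encoding p55 gamma, fell to 25.6 FPKM in persister cells, against 34.3 FPKM in parental cells (difference -0.41, q = 1.57e-06). PIK3R2, encoding p85 beta, was at 23.9 FPKM in persister and 25.2 FPKM in parental cells and was not called (q = 0.376). Summed over the 3 genes, FPKM was 66.2 in persister and 70.1 in parental cells, and PIK3R1 held 25.3% and 15.3% of it. An overlapping gene on the same strand covers 97.1% of the PIK3R2 exon bases in GENCODE 29, and another covers 21.7% of those of PIK3R3, so their values are uncertain.

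Class II PI3K genes, whose products act in membrane traffic, also went in opposite directions. PIK3C2A rose to 14.5 FPKM in persister cells, against 11.6 FPKM in parental cells (difference 0.30, q = 2.43e-05). PIK3C2B fell to 4.78 FPKM in persister cells, against 6.68 FPKM in parental cells (difference -0.41, q = 1.30e-08).

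**Figure D2:**
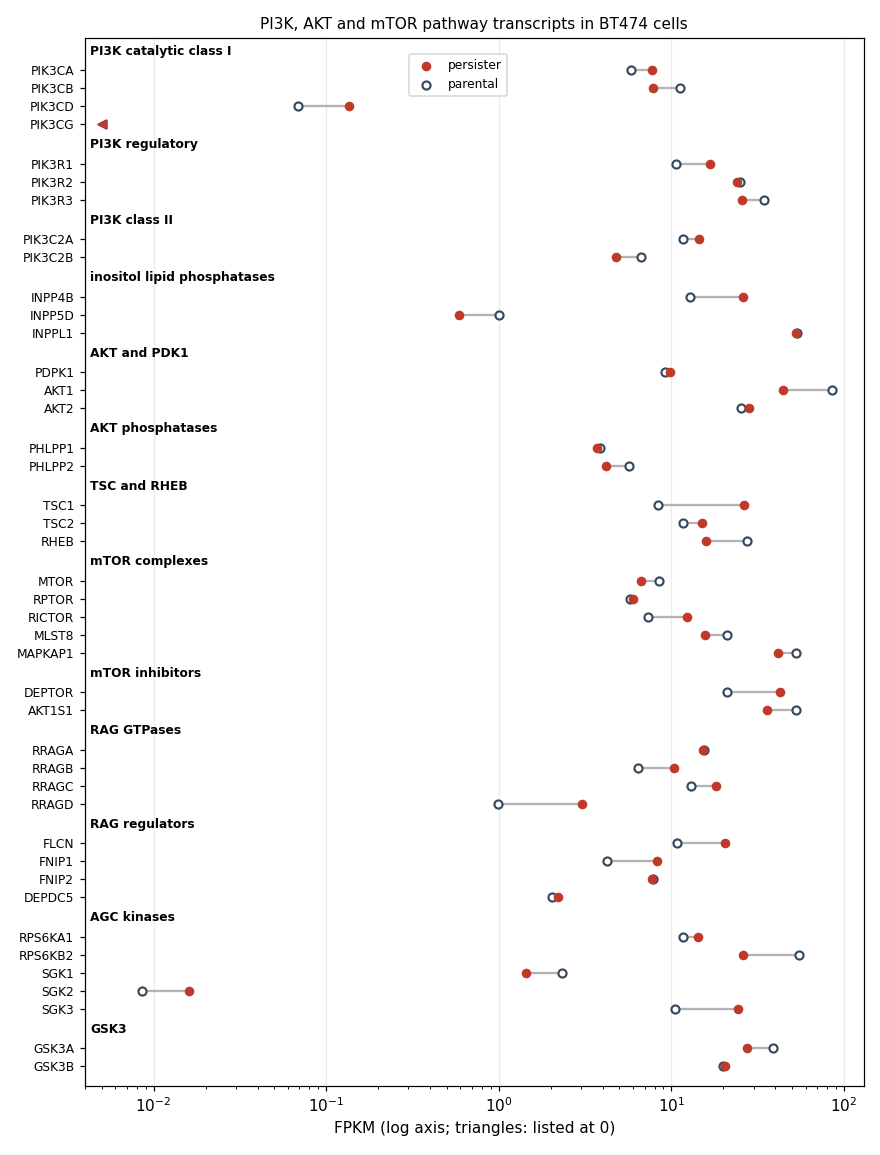
FPKM of the 42 pathway genes (log axis) in persister cells (filled red) and parental cells (open), 1 authors' value per group, ordered by role, with a triangle for the gene listed at 0. TSC1, SGK3, RRAGD, DEPTOR and INPP4B lie further right in persister cells, and AKT1, RPS6KB2 and RHEB further left.

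Of the phosphatases that take phosphate from PI3K lipids, 1 rose, 1 fell and 1 was not called. INPP4B, a phosphatase that removes a lipid to which AKT binds, had 25.9 FPKM in persister and 12.8 FPKM in parental cells. Its difference was 0.97 (q listed as 0), and only 453 of the 13617 tested genes had a larger rise. INPP5D, encoding SHIP1 of blood cells, was low and fell to 0.585 FPKM in persister cells, against 0.997 FPKM in parental cells (difference -0.33, q = 1.50e-05). INPPL1, encoding the widely expressed SHIP2, was the highest of the 42 genes in persister cells at 52.5 FPKM, with 53.3 FPKM in parental cells, and was not called (q = 0.795).

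The AKT genes differed from each other. AKT1 was the highest pathway gene in parental cells and fell to 44.5 FPKM in persister cells, against 85.7 FPKM in parental cells, a difference of -0.93 (q listed as 0). An antisense gene overlaps 14.5% of the AKT1 exon bases. AKT2 was at 28.2 FPKM in persister and 25.3 FPKM in parental cells, a rise of 0.15 with a q-value of 0.0426, close to the threshold. Their sum was 72.8 FPKM in persister and 111 FPKM in parental cells, and AKT1 made up 61.2% of it in persister and 77.2% in parental cells. A stricter threshold of 0.01 removed the call of AKT2. PDPK1, encoding the PDK1 kinase that activates AKT, was at 9.79 FPKM in persister and 9.23 FPKM in parental cells and was not called (q = 0.448), and its pseudogene PDPK2P could share reads, as could an antisense gene over 23.4% of its exon bases.

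The PHLPP phosphatases, which dephosphorylate AKT, were low in both groups. PHLPP2 fell to 4.20 FPKM in persister cells, against 5.68 FPKM in parental cells (difference -0.36, q = 5.16e-07). PHLPP1 was at 3.73 FPKM in persister and 3.85 FPKM in parental cells and was not called (q = 0.693). GSK3A and GSK3B encode kinases that AKT inhibits. GSK3A fell to 27.4 FPKM in persister cells, against 38.7 FPKM in parental cells (difference -0.48, q = 2.15e-10), whereas GSK3B was at 20.5 FPKM in persister and 19.8 FPKM in parental cells and was not called (q = 0.605). A same-strand gene covers 12.2% of the GSK3A exon bases, and centred on genes of like length and mean FPKM the difference of GSK3A was -0.23.

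At the TSC and RHEB switch, TSC1 and TSC2 were higher and their target RHEB lower. TSC1, the scaffold subunit that stabilises TSC2, had 26.3 FPKM in persister and 8.35 FPKM in parental cells, a ratio of 3.14 and a difference of 1.54 (q listed as 0). Only 119 of the 13617 tested genes had a larger rise. TSC2, the subunit that acts on RHEB, rose less, to 15.1 FPKM in persister cells, against 11.7 FPKM in parental cells (difference 0.34, q = 2.61e-05). TSC1 was therefore above TSC2 in persister cells, at 63.4% of their summed FPKM, and below it in parental cells, at 41.6%. TBC1D7, a further subunit of the TSC complex outside the 42 genes, went the other way. It had 7.13 FPKM in persister and 12.8 FPKM in parental cells (difference -0.76, q = 4.06e-10). Centred on genes of like length and mean FPKM, the difference of TBC1D7 was -0.46. Exons of PKD1 on the other strand overlap 11% of the TSC2 exon bases, and PKD1 had 7.08 FPKM in persister and 4.41 FPKM in parental cells. RHEB, the direct activator of mTORC1, fell to 15.9 FPKM in persister cells, against 27.5 FPKM in parental cells (difference -0.75, q listed as 0), and processed pseudogenes could share its reads.

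Of the 5 subunit genes of the mTOR complexes, 3 fell, 1 rose and 1 was not called. Among all tested genes, 39.0% were called lower and 30.9% higher. MTOR, the kinase, fell to 6.72 FPKM in persister cells, against 8.48 FPKM in parental cells (difference -0.30, q = 2.34e-05). MLST8, a subunit of both complexes, fell to 15.8 FPKM in persister cells, against 21.1 FPKM in parental cells (difference -0.40, q = 3.84e-06). RPTOR, the scaffold that defines mTORC1, was at 6.03 FPKM in persister and 5.74 FPKM in parental cells and was not called (q = 0.467). RICTOR, the subunit that defines mTORC2 and a known FOXO-regulated gene, rose to 12.3 FPKM in persister cells, against 7.31 FPKM in parental cells (difference 0.68, q listed as 0). The RICTOR to RPTOR ratio of FPKM was 2.04 in persister and 1.27 in parental cells. MAPKAP1, encoding SIN1, a further subunit particular to mTORC2, fell to 41.5 FPKM in persister cells, against 53.0 FPKM in parental cells (difference -0.34, q = 1.07e-04). The falls of MLST8 and MAPKAP1 came to -0.07 and -0.09 when centred on genes of like length and mean FPKM.

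Of the mTOR inhibitors, 1 was called higher and 1 lower. DEPTOR, which binds and inhibits the mTOR kinase, had 42.8 FPKM in persister and 21.2 FPKM in parental cells, a difference of 0.98 (q listed as 0). It ranked 3rd of the 42 genes in persister cells and 11th in parental cells. AKT1S1, encoding PRAS40, an mTORC1 inhibitor that AKT inactivates, fell to 35.9 FPKM in persister cells, against 52.9 FPKM in parental cells (difference -0.55, q = 1.82e-09). Centred on genes of like length and mean FPKM, the difference of AKT1S1 was -0.05 and that of DEPTOR 1.27.

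**Figure D3:**
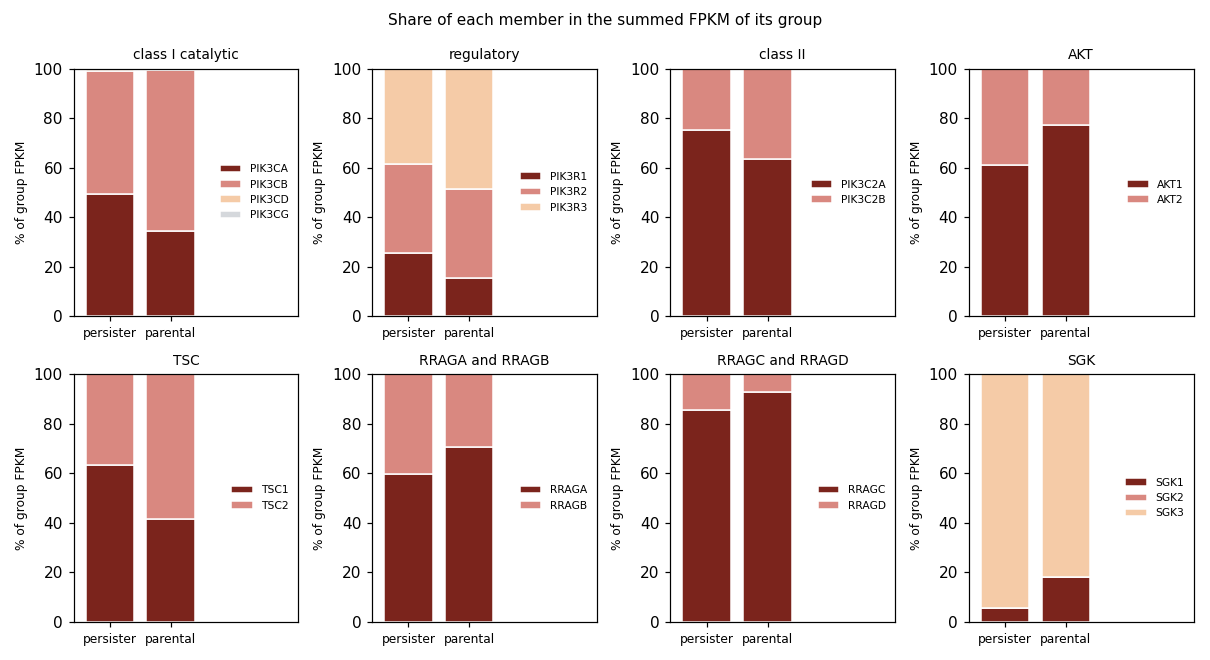
Percent of the summed FPKM held by each member of 8 groups of related genes, with persister cells left and parental cells right in each panel and 1 authors' value per group behind each bar. The AKT1 share is 61.2% in persister and 77.2% in parental cells, and the TSC1 share 63.4% and 41.6%.

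RAG GTPases and their folliculin regulators were higher or not called, and none was called lower. RAG proteins work as pairs of RRAGA or RRAGB with RRAGC or RRAGD. RRAGD had 3.03 FPKM in persister and 0.995 FPKM in parental cells, a ratio of 3.05 and a difference of 1.02 (q listed as 0). RRAGB rose to 10.4 FPKM in persister cells, against 6.41 FPKM in parental cells (difference 0.62, q = 3.08e-10). RRAGC rose to 18.2 FPKM in persister cells, against 12.9 FPKM in parental cells (difference 0.46, q = 1.70e-08), and an overlapping transcript on the same strand covers 43.3% of its exon bases. RRAGA was at 15.3 FPKM in persister and 15.4 FPKM in parental cells and was not called (q = 0.911). RRAGD remained the minor partner, at 14.3% of the RRAGC and RRAGD sum in persister and 7.13% in parental cells. With 4 genes tested, 3 higher and a median of 0.54, the family stood beside 30.9% of all genes called higher and a median of -0.04.

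FLCN, encoding folliculin, which with FNIP1 or FNIP2 activates RRAGC and RRAGD, had 20.5 FPKM in persister and 10.7 FPKM in parental cells (difference 0.88, q listed as 0). An overlapping gene on the same strand covers 27.8% of its exon bases. FNIP1 was listed at 8.29 FPKM in persister and 4.22 FPKM in parental cells, but the table gives a fold of 1 and a q-value of 1, so it has no estimate and was not counted. FNIP2 was at 7.68 FPKM in persister and 7.85 FPKM in parental cells and was not called (q = 0.756). DEPDC5, a subunit of the GATOR1 complex that switches off RRAGA and RRAGB, was at 2.21 FPKM in persister and 2.04 FPKM in parental cells and was not called (q = 0.465), with a same-strand gene over 21.8% of its exon bases.

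The downstream AGC kinases held the largest fall and, by the log2(FPKM + 1) difference, the second-largest rise. With 0.1 added to FPKM in place of 1, RRAGD rose further (1.52) than the AGC kinase SGK3 (1.19). RPS6KB2, encoding the ribosomal S6 kinase S6K2 that mTORC1 activates, fell to 25.9 FPKM in persister cells, against 54.6 FPKM in parental cells, a difference of -1.05 (q listed as 0). An antisense gene overlaps 27.1% of its exon bases. RPS6KB1, encoding the related S6K1 and not among the 42 genes, was higher than RPS6KB2 in both groups. It had 51.7 FPKM in persister and 62.2 FPKM in parental cells (difference -0.26, q = 6.15e-04). Centred on genes of like length and mean FPKM, the difference of RPS6KB1 was 0.03. SGK3, a kinase activated through PI3K lipids on endosomes that shares substrates with AKT, had 24.3 FPKM in persister and 10.54 FPKM in parental cells, a difference of 1.13 (q listed as 0). SGK1, a substrate kinase of mTORC2 that steroid hormones and stress induce, fell to 1.44 FPKM in persister cells, against 2.32 FPKM in parental cells (difference -0.45, q = 3.94e-07). SGK2 was listed at 0.0159 FPKM in persister and 0.00860 FPKM in parental cells and was not covered by the test. SGK3 made up 94.3% of the SGK sum in persister and 81.9% in parental cells. RPS6KA1, encoding the ERK-activated kinase RSK1, rose to 14.2 FPKM in persister cells, against 11.8 FPKM in parental cells (difference 0.25, q = 0.00264).

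Promoter sequence was examined for 35 of the 42 genes, those with a RefSeq window (GRCh38.p14) of 250 bases before to 50 after a start. Letters searched on both strands were GTAAACA, a forkhead core that FOXO factors bind, and the palindrome TCACGTGA, an E-box form that TFEB and TFE3 bind. GTAAACA or its complement was found in 1 gene (PIK3CA), beside 4.19% of all 27305 genes with a window, and TCACGTGA in 2 genes (TSC2 and RRAGB), beside 1.18%. The window of TSC1, the gene with the largest rise, held neither. A match of these letters is a description of the sequence and shows no binding. The 250 bases before the start follow in lower case with the match in capitals, for TSC1 (chr9:132944617-132944866, minus strand), TSC2 (chr16:2047735-2047984, plus strand), RRAGB (chrX:55717499-55717748, plus strand) and PIK3CA (chr3:179148107-179148356, plus strand).
TSC1: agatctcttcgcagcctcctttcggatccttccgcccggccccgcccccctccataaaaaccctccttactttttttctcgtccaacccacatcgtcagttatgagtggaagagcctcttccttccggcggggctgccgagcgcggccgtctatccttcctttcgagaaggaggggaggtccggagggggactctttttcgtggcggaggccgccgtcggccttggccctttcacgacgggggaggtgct
TSC2: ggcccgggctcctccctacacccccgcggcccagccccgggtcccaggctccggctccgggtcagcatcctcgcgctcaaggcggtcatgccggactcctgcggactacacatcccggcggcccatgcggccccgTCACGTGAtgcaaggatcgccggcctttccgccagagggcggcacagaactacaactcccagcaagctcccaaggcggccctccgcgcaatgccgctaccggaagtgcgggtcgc
RRAGB: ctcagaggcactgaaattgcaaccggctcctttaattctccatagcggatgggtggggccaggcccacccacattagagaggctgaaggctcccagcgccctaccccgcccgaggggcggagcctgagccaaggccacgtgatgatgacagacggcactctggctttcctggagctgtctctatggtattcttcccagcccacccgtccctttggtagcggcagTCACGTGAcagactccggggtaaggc
PIK3CA: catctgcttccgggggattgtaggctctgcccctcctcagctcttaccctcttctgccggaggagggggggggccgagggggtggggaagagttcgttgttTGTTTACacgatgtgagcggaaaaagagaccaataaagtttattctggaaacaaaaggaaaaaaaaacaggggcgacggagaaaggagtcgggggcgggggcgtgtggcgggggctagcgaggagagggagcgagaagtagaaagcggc
The first base of the match lay 115 bases before the start in TSC2, 26 in RRAGB and 149 in PIK3CA.

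Other genes of the pathway, 87 found in the table from lists of inputs, brakes, partners and outputs, likewise moved both ways. Of 78 tested, 31 (39.7%) were called higher and 27 (34.6%) lower, with a median of 0.06. Among all tested genes 30.9% were called higher and 39.0% lower, with a median of -0.04, so these counts were near the background. The inputs and brakes of PI3K and AKT had 8 higher and 8 lower of 24 tested, the amino acid and energy inputs to mTORC1 14 higher and 11 lower of 32, and the mTOR partners and outputs 9 higher and 8 lower of 22. Those that rose by at least 1 were PIK3IP1, IRS1, IRS2, INPP5J, GATSL2 and DDIT4, where 2.98% of all tested genes rose and 6.01% fell by that much. PIK3IP1, a membrane inhibitor of PI3K, had 47.1 FPKM in persister and 4.45 FPKM in parental cells. IRS2, an insulin receptor substrate that recruits PI3K and a known FOXO-regulated gene, had 5.39 FPKM in persister and 1.13 FPKM in parental cells. INPP5J, an inositol polyphosphate phosphatase, had 23.8 FPKM in persister and 10.2 FPKM in parental cells. GATSL2, of the family of arginine sensors upstream of mTORC1, had 5.91 FPKM in persister and 1.76 FPKM in parental cells. GATSL3, of the same family, was called lower, at 1.98 FPKM in persister and 2.55 FPKM in parental cells (difference -0.25, q = 0.0152). EIF4E, the cap-binding translation factor that mTORC1 controls through its binding proteins, was the single gene that fell by at least 1, to 7.03 FPKM in persister cells, against 17.2 FPKM in parental cells. Genes of 2 such binding proteins fell too. EIF4EBP1, just short of that size (difference -0.9998, q listed as 0), had 28.9 FPKM in persister and 58.7 FPKM in parental cells. EIF4EBP2 had a difference of -0.48 (q = 4.11e-13). When centred on genes of like length and mean FPKM, EIF4E, EIF4EBP1 and EIF4EBP2 came to -0.86, -0.53 and -0.52. IRS1 had 10.3 FPKM in persister and 2.63 FPKM in parental cells, and DDIT4, a stress-induced mTORC1 inhibitor, 52.4 FPKM in persister and 21.6 FPKM in parental cells. For all 7 genes that moved by at least 1 the authors' deposited table lists q as 0.

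Differences in this table varied with transcript length and level across all genes. Spearman's rho with length was 0.24 and with mean FPKM -0.27, over 9976 genes that are not independent replicates. Set against genes of like length and mean FPKM, TSC1 (1.57), SGK3 (1.33), DEPTOR (1.27), FLCN (1.21) and INPP4B (1.01) stayed furthest up. AKT1 (-0.68), RPS6KB2 (-0.64) and RHEB (-0.61) remained the lowest. AKT1S1, MLST8 and MAPKAP1 lay close to the median of such genes.

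**Figure D4:**
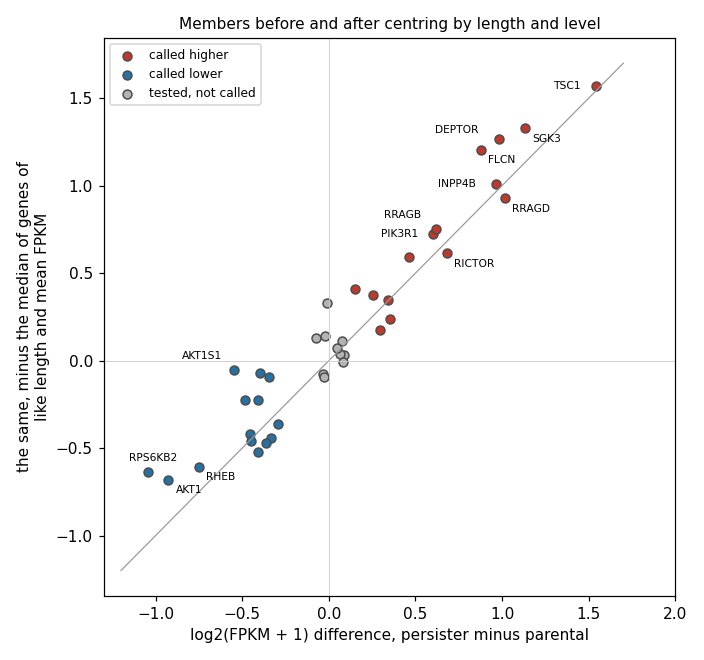
Difference of the 39 tested genes (horizontal, log2(FPKM + 1), persister minus parental) against the same difference minus the median of tested genes in the same decile of transcript length and of mean FPKM (vertical), each point a gene and the line marking equal values. Genes such as AKT1S1, at -0.55 and -0.05, lie well above the line, while TSC1 lies near it at 1.54 and 1.57.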

How the data were processed

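RNA from 3 persister and 2 parental BT474 samples was sequenced from a library kit that keeps no strand, per the labels' protocols. Build hg18 and the tools TopHat2 2.0.6, Cuffdiff 2.0.2, CASAVA 1.8 and Cufflinks stand in the submitters' processing notes, without settings. For 18803 entries the authors deposited an FPKM in each group, their fold change and their q-value. With no values of single libraries, the limma fit planned for such values could not be made, and the authors' q-value was used (called: under 0.05; covered: below 1). A q-value of 0 was deposited by the authors for 2712 entries, with 1.2e-15 the next smallest. A fold of 1 with a q-value of 1 beside unequal FPKM (beyond 0.6%) was taken as no estimate. The sources used here do not give how libraries were scaled, and depth is unknown.

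Of entries sharing a symbol the one with the highest mean FPKM was used; no pathway gene had more than 1 entry. Lengths and exon overlaps came from GENCODE 29, whose build differs from that of the authors. Centring by length decile was tested on data simulated with a length trend. Centring by length and mean FPKM decile was not tested in this way. Calculations used Python 3.11.15, pandas 2.3.3 and numpy 2.4.6. The genes, lists, motifs and classes were chosen with earlier results of these data known. Values are given for all 42 genes, and for genes of the other lists that were called with a difference of at least 1. In the closing section they are given by whole complex and for TFEB, TFE3 and MITF. TBC1D7, RPS6KB1, GATSL3, EIF4EBP1 and EIF4EBP2 are given beside related genes and were chosen after their values were seen. Alternatives were other scalings, a pseudocount of 0.1, an FPKM minimum of 1, summed entries, other call thresholds and other classes.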

Additional observations from a re-analysis of the deposited data

How the results depend on the processing

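None of the 29 called pathway genes changed direction under the 5 settings that can change a gene's difference (centring on genes with FPKM of at least 1, on length deciles, or on length and mean FPKM deciles, upper quartile scaling, and a pseudocount of 0.1). Summing entries could not change any of them, and an FPKM minimum of 1 only leaves out genes, among them INPP5D. Centring on genes with FPKM of at least 1 moved the medians to 0.16 for the pathway genes, 0.18 for positive components and 0.14 for negative regulators. Upper quartile scaling of persister FPKM, by a factor of 1.14, moved them to 0.16, 0.19 and 0.19. Counting only differences of at least 1 left 3 higher and 1 lower in all, 2 higher and 1 lower among positive components, and 1 higher and 0 lower among negative regulators. A minimum of 0.5 left 9 higher and 4 lower in all, 4 higher and 3 lower among positive components, and 3 higher and 1 lower among negative regulators. A q-value under 0.01 left 14 higher and 14 lower, and the share of all tested genes at this threshold was not computed. No paired analysis was possible because the deposited table holds 1 value per group and none per library, and leaving out each replicate was not run for the same reason. Without depths, no limit can be set on the low genes PIK3CD, PIK3CG and SGK2.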

Other observations

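Complexes that pass amino acid and energy signals to mTORC1 held genes called in both directions. Of the 5 subunits of Ragulator, the lysosomal anchor of the RAG GTPases, LAMTOR3 rose to 9.43 FPKM in persister cells, against 5.76 FPKM in parental cells (difference 0.63, q = 4.40e-11 in the authors' deposited table). LAMTOR2, LAMTOR4 and LAMTOR5 were called lower, with differences of -0.36, -0.25 and -0.46, but centred on genes of like length and mean FPKM they came to 0.10, 0.29 and 0.08, so their direction turned with this setting. LAMTOR1 was at 102 FPKM in persister and 120 FPKM in parental cells and was not called (q = 0.104). In GATOR1, NPRL3 fell with a difference of -0.24 and NPRL2 was not called (q = 0.204). In GATOR2, which opposes GATOR1, WDR59 rose to 16.0 FPKM in persister cells, against 10.1 FPKM in parental cells, and WDR24 rose by 0.18. SEC13 and SEH1L, which also belong to the nuclear pore, fell with differences of -0.85 and -0.68, and MIOS fell with -0.26. When centred on genes of like length and mean FPKM, SEC13, SEH1L and MIOS came to -0.37, -0.40 and -0.24, and NPRL3 to -0.12.

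Subunits of the AMP-activated kinase, which restrains mTORC1 when energy is low, comprised 4 genes called higher, 1 called lower and 1 not called, beside 30.9% of all tested genes higher and 39.0% lower. PRKAA1, the main catalytic subunit, rose to 30.2 FPKM in persister cells, against 21.2 FPKM in parental cells (difference 0.49, q = 9.18e-08). PRKAA2, PRKAB2 and PRKAG2 rose with differences of 0.16, 0.31 and 0.26. PRKAB1 fell with -0.22, and PRKAG1 was not called (q = 0.455). When centred on genes of like length and mean FPKM, PRKAB1 came to -0.10 and PRKAA2 to 0.05. Among the sestrins, which inhibit GATOR2, SESN3 rose to 0.411 FPKM in persister cells, against 0.201 FPKM in parental cells, and SESN2 rose by 0.20. SESN1 was at 11.9 FPKM in persister and 13.9 FPKM in parental cells, with a q-value of 0.0504. TFEB, a transcription factor that mTORC1 keeps out of the nucleus through RRAGC and RRAGD, rose to 1.82 FPKM in persister cells, against 0.734 FPKM in parental cells. The related TFE3, at 6.47 FPKM in persister and 5.91 FPKM in parental cells, was not called (q = 0.224). MITF, at 0.568 FPKM in persister and 0.713 FPKM in parental cells, was not called either (q = 0.0882). These complexes, TFEB, TFE3 and MITF were chosen for description after their values were seen.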
